A study of Mus musculus with 24 samples.

Results

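In mice of line 25, which the labels call the high freezing line, the amygdala was set apart from the hippocampus by genes of inhibitory and striatal-type neurons and by neuropeptides. The hippocampus was set apart by genes of granule cells, pyramidal cells and connective tissue. The comparison uses 12 of the 24 arrays of the series, 6 of amygdala and 6 of hippocampus, all from males of line 25 and all numbered 7 to 12 in their tissue. They were chosen by the line and tissue in the sample labels, with no measured value involved. Arrays numbered 1 to 6 of the same tissues come from males of line 24, the low freezing line, and stand beside them as a second set of arrays. According to the series title, the lines were selected for contextual fear conditioning, in which a mouse freezes on returning to a place where it was shocked. No strain, age, treatment or time after conditioning is named, the borders of the dissection are not given, and each line is a single breeding line. Nothing in the labels says whether an array holds RNA of 1 animal or of several, and p-values here reflect array-to-array spread, which may in part be technical.

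The amygdala is a composite structure. Its basolateral part is built from glutamatergic neurons of cortical origin, while its central and medial nuclei and the intercalated cell masses are mostly GABAergic, arise next to the striatum and release many neuropeptides. The hippocampus holds densely packed layers of glutamatergic neurons, the pyramidal cells of the CA fields and the granule cells of the dentate gyrus, with scattered interneurons. In contextual conditioning the hippocampus is known for representing the place, and the amygdala for linking it to the shock and driving freezing.

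Each array gives a linear signal per probe set, a set of probes for 1 transcript or part of it. Differences are amygdala minus hippocampus of the means of log2(signal + 16), given ± SE of the fit with 6 arrays per tissue, so a positive value means more in amygdala. Because 16 is added, the scale understates changes of weak genes. A probe set was called when limma's Benjamini-Hochberg adjusted p was under 0.05 over the 45037 probe sets tested. A gene was read on its brightest probe set, the one with the highest mean over the 12 arrays. Signals of different genes are not comparable with each other, since probes differ in efficiency. In whole tissue, fewer cells of a type and less RNA per cell cannot be told apart.

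In all, 6917 of 45037 probe sets were called (15.4%), 3341 in favour of amygdala (7.42%) and 3576 in favour of hippocampus (7.94%), so that 48.3% of the calls favoured amygdala. With each array centred on its median instead, 6302 were called, 3799 against 2503, and 60.3% favoured amygdala. A difference of at least 1 was reached by 734 called probe sets (1.63%). Of 18193 genes, 3276 were called (18%), 1848 in the direction of amygdala (10.2%) and 1428 in that of hippocampus (7.85%). These percentages are the background against which the counts in gene lists below should be read. They average over all genes and are not matched to the brightness of a list. The lists were also chosen with earlier results of these data known. A share above the background is therefore not by itself an excess. The arrays of the tissues did not overlap for 2481 genes (13.6%). Most called differences were modest: their median size was 0.51, and 377 genes (2.07%) were called with a difference of at least 1, of which 231 were higher in amygdala and 146 in hippocampus. At least 2 was reached by 19 genes in the direction of amygdala and 14 in that of hippocampus. Calls were more frequent among bright genes, from 4.64% in the dimmest of 4 equal brightness classes to 32.0% in the brightest. The median difference of all genes was -0.010.

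Before the genes, some properties of the arrays have to be stated. A control for 18S ribosomal RNA, at its 5′ end, which reads RNA and label preparation and not a gene, ran from 324 to 1525 on the amygdala arrays (median 530.4) and from 3600.0 to 5799.9 on the hippocampus arrays (median 5641). The tissues did not overlap (two-sided exact permutation test over 924 arrangements of the arrays, p = 0.00216, the smallest this design can give; adjusted p = 0.00649 over 6 measures). The ratio of the 5′ to the 3′ control of GAPDH did not overlap either, at 1.03 to 1.34 in amygdala against 1.38 to 1.45 in hippocampus (exact permutation p = 0.00216, adjusted p = 0.00649). The same ratio for actin was 0.301 and 0.339 on amygdala arrays 7 and 8 and 0.554 to 0.617 on the other amygdala arrays, against 0.517 to 0.568 in hippocampus (exact permutation p = 0.448, adjusted p = 0.538). The other controls for 18S ribosomal RNA did not separate the tissues. The middle control ran from 210 to 408 in amygdala and from 343 to 510 in hippocampus (exact permutation p = 0.0108, adjusted p = 0.0216). The 3′ control ran from 255 to 818 in amygdala and from 351 to 546 in hippocampus (exact permutation p = 0.771, adjusted p = 0.771). Tissue and preparation cannot be told apart in this series, whatever the gene. Hippocampus array 7 had the highest median signal, 55.6 against 43.3 to 51.0 on the other 11 arrays, and lay apart on the second principal component. Without amygdala arrays 7 and 8 the calls numbered 4998, and without hippocampus array 7 they numbered 6180, in each case close to evenly split between the tissues.

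**Figure D1:**
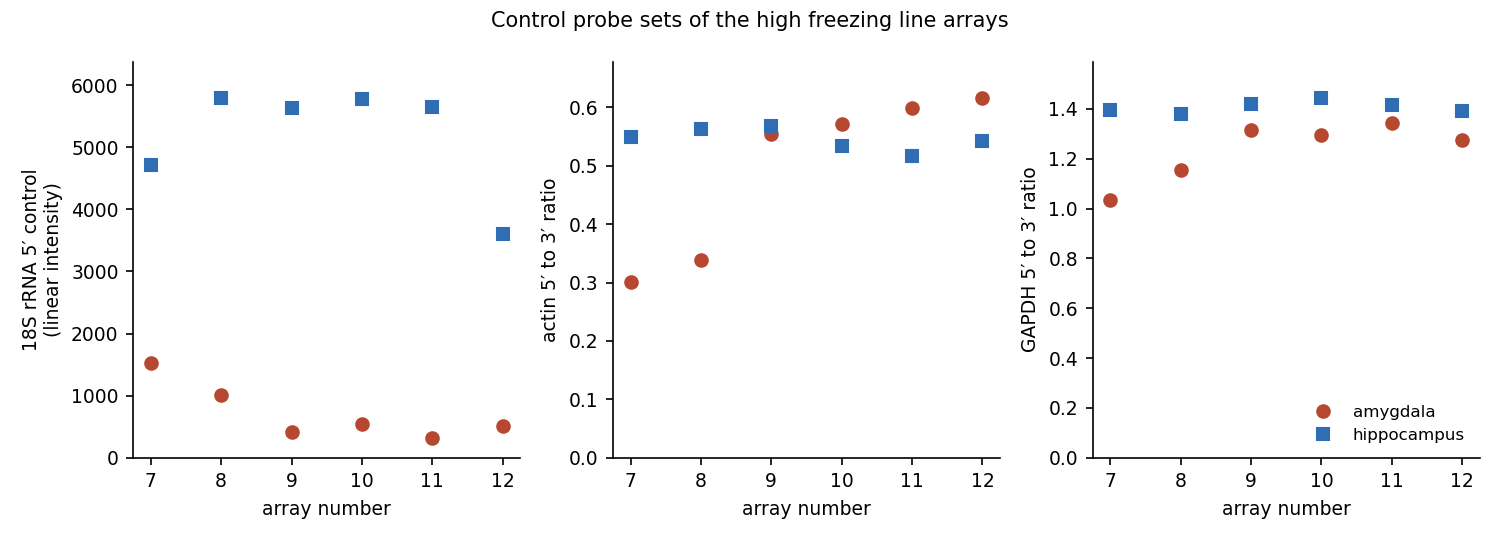
Control probe sets on the 12 arrays of the high freezing line, by array number, with amygdala as circles and hippocampus as squares: the signal of the 18S ribosomal RNA 5′ control and the 5′ to 3′ ratios of actin and GAPDH, each axis starting at 0. The 18S 5′ control and the GAPDH ratio separate the tissues, and the actin ratio is low on amygdala arrays 7 and 8.

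Penk, the precursor of the enkephalin opioid peptides, had the largest difference in favour of amygdala. Its signal ran from 1989 to 3553 in amygdala (median 2869) and from 194 to 257 in hippocampus (median 213). No amygdala array came near a hippocampus array, and the difference was 3.59 ± 0.14, adjusted p = 1.04e-08, which is 12.1-fold on the scale used. Among genes with a regular name and a mean log2 level of at least 7 in the higher tissue, from which the leading genes of both directions were taken, Glra3 came next. This subunit of the glycine receptor ran from 243 to 363 in amygdala (median 335) and from 11.4 to 50.9 in hippocampus (median 29.8) (2.91 ± 0.18, adjusted p = 3.74e-07). Baiap3, a C2-domain protein of dense-core vesicle release, ran from 507 to 724 in amygdala (median 621) and from 61.1 to 81.7 in hippocampus (median 67.5) (2.87 ± 0.10, adjusted p = 1.04e-08). Drd1, the D1 dopamine receptor, ran from 429 to 649 in amygdala (median 557) and from 56.9 to 87.4 in hippocampus (median 71) (2.69 ± 0.12, adjusted p = 3.07e-08). In all 4 genes the lowest amygdala array lay well above the highest hippocampus array. The other 11 genes with the largest differences in this direction lay between 2.08 and 2.67. They were the transcription factors Foxp2 and Pbx3, the receptor Gpr6 of striatal neurons, the neurokinin B precursor Tac2, the kinase Camk2d, the myosin heavy chain Myh7, the lipid phosphatase relative Plppr3, the guidance cue Sema3a, the dopamine-regulated phosphatase inhibitor Ppp1r1b, the peptidase Ecel1 and the retinoic acid hydroxylase Cyp26b1.

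Dsp, which encodes the desmosome protein desmoplakin and marks granule cells of the dentate gyrus, had the largest difference of all genes. Its signal ran from 4.4 to 14.4 in amygdala (median 9.4) and from 268 to 398 in hippocampus (median 351). The amygdala values are those of a probe set near the bottom of the scale, while the hippocampus values are well above it, and the difference was -3.80 ± 0.12, adjusted p = 7.10e-09. Its size is limited by the 16 added to the weak amygdala signals, so no fold is given. Lct, lactase, ran from 3.09 to 25.6 in amygdala (median 9.24) and from 219 to 310.5 in hippocampus (median 279.7) (-3.40 ± 0.18, adjusted p = 1.34e-07), and Lefty1, an inhibitor of Nodal signalling, ran from 5.61 to 35 in amygdala (median 10.8) and from 171 to 217 in hippocampus (median 202) (-2.79 ± 0.20, adjusted p = 1.09e-06). A second desmosome gene, Pkp2 or plakophilin, ran from 100.03 to 122 in amygdala (median 116) and from 522 to 611 in hippocampus (median 599) (-2.21 ± 0.07, adjusted p = 8.99e-09). For each of these genes the tissues were far apart on every array. Further genes with the largest differences in this direction, between -2.33 and -1.97 except Cabp7 and Pou3f1, were Ccbe1, Olfml2b, the matrix proteoglycan decorin (Dcn), the transcription factors St18, Cebpd, Neurod6 and Prox1, the secreted synaptic protein C1ql2 and the receptor Fibcd1. Cabp7, a calcium-binding protein, was at -2.43 ± 0.14 and Pou3f1, a POU-domain factor of pyramidal cells, at -2.40 ± 0.10.

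**Figure D2:**
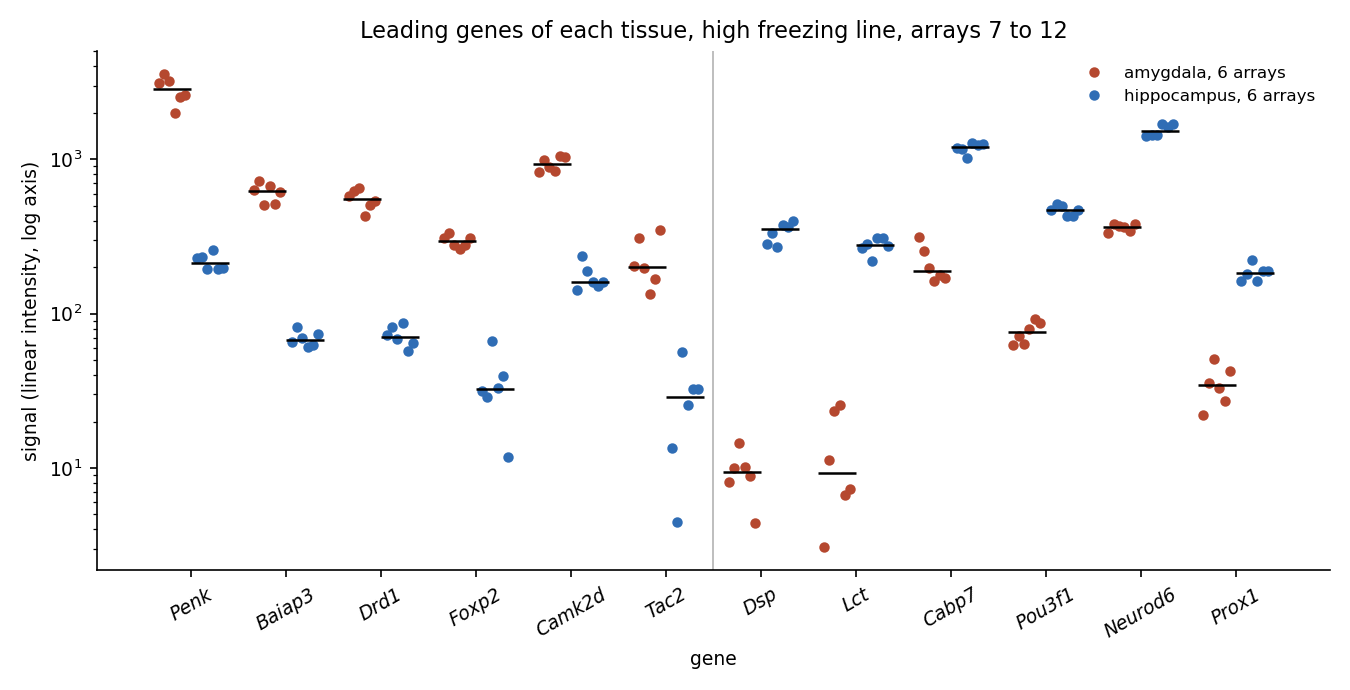
Signal of 12 leading genes on each array of the high freezing line (linear intensity on a log axis), amygdala left and hippocampus right of each gene, with a bar at the median of the 6 arrays. For the 6 genes on the left the amygdala arrays are all above the hippocampus arrays, and for the 6 on the right they are all below.

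Genes of GABAergic and subpallial identity were higher in amygdala. Of 20 measured members 13 were called in that direction and 0 in the other, with a median difference of 0.87, and on the low line arrays the counts were 15 and 0, where 8.46% and 6.63% of all genes were called in these directions. The enzyme that makes GABA at terminals, Gad2, ran from 867 to 1283 in amygdala (median 998) and from 309 to 493 in hippocampus (median 394) (1.30 ± 0.12, adjusted p = 1.48e-05). The vesicular GABA transporter Slc32a1 ran from 512 to 738 in amygdala (median 614) and from 224 to 292 in hippocampus (median 257) (1.22 ± 0.11, adjusted p = 1.11e-05). Neither gene's arrays overlapped. The other GABA-synthesizing enzyme, Gad1, differed far less: it ran from 3380.1 to 4106 in amygdala (median 3617) and from 2676 to 3164 in hippocampus (median 2979.7), a difference of 0.31 ± 0.07, adjusted p = 0.0138. Transcription factors of the ventral forebrain went the same way. Foxp2 was at 2.67 ± 0.20, Pbx3 at 2.21 ± 0.11, Meis2 at 1.98 ± 0.10, Isl1 at 1.78 ± 0.20 with low signals, Six3 at 1.69 ± 0.28 and Zfhx3 at 1.58 ± 0.15. The members not called include Foxp1 (0.07 ± 0.12) and Bcl11b (-0.12 ± 0.08), both bright in both tissues, and Dlx1 (-0.13 ± 0.10) and Zic1 (-0.33 ± 0.14). Of the distal-less factors of GABAergic specification, Dlx5 was called (0.61 ± 0.14, arrays overlapping), and Dlx1, Dlx2 (0.13 ± 0.14) and Dlx6 (0.53 ± 0.17) were not.

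Genes of cortical-type glutamatergic neurons were higher in hippocampus. Of 16 measured members 12 were called in that direction and 1 in the other, with a median of -0.74, and 13 and 1 on the low line arrays. Neurod6, a bHLH factor of pyramidal neurons, ran from 333 to 383 in amygdala (median 365) and from 1422 to 1699 in hippocampus (median 1537) (-2.05 ± 0.08, adjusted p = 1.04e-08). Zbtb20, a zinc finger factor that specifies hippocampal pyramidal neurons, ran from 505 to 554 in amygdala (median 512) and from 1772 to 2117 in hippocampus (median 1819) (-1.83 ± 0.07, adjusted p = 1.54e-08), and its 8 other probe sets were called the same way. The arrays of the tissues lay far apart for both. The vesicular glutamate transporter of cortical neurons, Slc17a7, was at -0.71 ± 0.12, and Camk2a at -0.76 ± 0.10. Tbr1, a T-box factor of the pallium, was the member called higher in amygdala, at 0.30 ± 0.09. The synaptic vesicle protein Sv2b, at 0.0088 ± 0.08, was not called. Slc17a6, the vesicular glutamate transporter of subcortical neurons and a member of the basolateral list, went the other way. It ran from 413 to 801 in amygdala (median 529) and from 132 to 254 in hippocampus (median 157) (1.60 ± 0.20, adjusted p = 1.59e-04).

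Of 25 measured markers of the central and medial nuclei and the intercalated cells, 19 were called in favour of amygdala and 0 in favour of hippocampus, with a median of 1.32. On the low line arrays 20 and 0 were called. Besides Penk, Foxp2, Tac2 and Ecel1, the estrogen receptor Esr1, a gene of the medial nucleus, ran from 134 to 159.9 in amygdala (median 149) and from 4.9 to 47 in hippocampus (median 29.9) (1.96 ± 0.23, adjusted p = 7.67e-05). The orphan receptor Gpr101 was at 1.90 ± 0.27, and the homeodomain factor Otp at 1.48 ± 0.27. Crh, corticotropin-releasing hormone, ran from 169 to 302 in amygdala (median 249.97) and from 49.7 to 83.6 in hippocampus (median 72.8) (1.62 ± 0.14, adjusted p = 4.76e-06). The arrays of the tissues did not overlap for 16 of the 25. Prkcd, protein kinase C delta, is a defining gene of a class of central nucleus neurons, and it did not separate the tissues. It ran from 106 to 193 in amygdala (median 137) and from 101.47 to 155 in hippocampus (median 131), a difference of 0.10 ± 0.13 that was not called (adjusted p = 0.644). Ezr, at -0.04 ± 0.11, was not called either. Calcrl (0.31 ± 0.12), Avp (0.60 ± 0.38) and the weak Sim1 (0.29 ± 0.28) and Lhx5 (-0.24 ± 0.26) were not called.

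Markers of the basolateral amygdala were mixed, as 6 of 14 were called in favour of amygdala and 4 in favour of hippocampus (median 0.30; 6 and 3 on the low line arrays). Those higher in amygdala were Cyp26b1 (2.08 ± 0.11), the exocytosis protein Otof (1.85 ± 0.19), Slc17a6, the nuclear receptor Nr2f2 (1.45 ± 0.09), the peptide precursor Adcyap1 (1.14 ± 0.12) and Lmo3 (0.53 ± 0.07). Grp, gastrin-releasing peptide, which principal cells of the lateral nucleus make, was lower in amygdala than in hippocampus. It ran from 286 to 360.2 in amygdala (median 331) and from 457 to 498 in hippocampus (median 488) (-0.53 ± 0.07, adjusted p = 2.28e-04). Neurod6, Dcn and Sema3e, which are shared with hippocampal cells, were also higher in hippocampus. Rspo2, a Wnt co-activator of basolateral neurons, was at -0.23 ± 0.09 and not called. This list alone did not set the tissues apart in 1 direction.

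Striatal projection neuron markers had the highest share of calls of the 43 lists. Of 18 measured members 15 were called in favour of amygdala and 0 in favour of hippocampus (median 1.41), and 18 and 0 on the low line arrays. Ppp1r1b ran from 274 to 694 in amygdala (median 474) and from 67.9 to 129.8 in hippocampus (median 76.2) (2.19 ± 0.22, adjusted p = 2.29e-05). Drd2, the D2 dopamine receptor, ran from 85.2 to 215 in amygdala (median 127) and from 13.1 to 43.7 in hippocampus (median 30.1) (1.71 ± 0.23, adjusted p = 2.62e-04). Adcy5, the adenylate cyclase of striatal neurons, ran from 953 to 1584 in amygdala (median 1323) and from 348 to 412 in hippocampus (median 372) (1.70 ± 0.14, adjusted p = 3.68e-06). The tissues did not overlap for any of these 3 genes. The mean level of the list by array was 8.48, 8.45 and 8.30 on amygdala arrays 7, 8 and 9 and 7.85, 7.96 and 8.05 on arrays 10, 11 and 12, against 6.75 to 6.91 on the hippocampus arrays. Scn4b, the sodium channel beta subunit of striatal projection neurons, was among the genes that varied most between amygdala arrays, from 165 to 549 in signal. Ppp1r1b itself read 572, 694, 570.2, 274, 354 and 378 on amygdala arrays 7 to 12 in that order. Intercalated and central cells share many of these genes with the neighbouring striatum, and how far the dissected tissue reached was not tested. Without amygdala arrays 7 and 8, an alternative chosen after the data were seen, 14 of the 18 were called, all higher in amygdala.

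Markers of other neighbours had lower shares of calls than the striatal list. Of 19 hypothalamus markers 6 were called in favour of amygdala and 0 in favour of hippocampus (median 0.46). Those called were Baiap3, neuroglobin (Ngb, 2.04 ± 0.16), Otp, the huntingtin partner Hap1 (1.48 ± 0.10), Trh (1.40 ± 0.22) and Gal (1.32 ± 0.24). Several genes that define single hypothalamic cell groups were not called, with either sign. Hcrt was at -0.10, Pmch at -0.26, Nr5a1 at -0.37 and Six6 at -0.56, while Avp was at 0.60, Pomc at 0.52 and Oxt at 0.46. Of the 19, 12 had a positive and 7 a negative difference. In both tissues 9 of the 19 were weak, here meaning a mean log2(signal + 16) under 6 in each. By array the list mean was 6.16 to 6.38 in amygdala and 5.43 to 5.95 in hippocampus. Among 18 thalamus and habenula markers 4 were called in favour of amygdala and 1 in favour of hippocampus (median -0.12), and 11 were weak in both tissues. The median was 0.16 without the lowest 40% of probe sets. On the probe set of lowest p it was 0.07, with 6 calls in favour of amygdala and 3 in favour of hippocampus. The 4 were Tac2, Slc17a6, Calb2 and Plcb4. Tac2 and Slc17a6 are also on the amygdala lists and Calb2 on that of interneurons, while Plcb4 is on none of these. Cortex, piriform and claustrum markers had 5 calls in the direction of amygdala and 3 in that of hippocampus among 15 (median 0.14), with Oprk1 (1.31 ± 0.21) and Cux2 (0.91 ± 0.13) on 1 side and Nptx1 (-1.17 ± 0.07) and Nr4a2 (-1.31 ± 0.13) on the other. The part of neighbouring tissue in these values was not tested.

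Dentate granule cell markers were higher in hippocampus for 13 of 21 and higher in amygdala for 2 (median -0.66; 14 and 2 on the low line arrays). Prox1, the factor that maintains granule cell identity, ran from 22 to 51.1 in amygdala (median 34.4) and from 162 to 223 in hippocampus (median 185) (-1.99 ± 0.13, adjusted p = 6.24e-07). C1ql2 ran from 8.69 to 52.5 in amygdala (median 37.2) and from 130.4 to 193 in hippocampus (median 162) (-1.99 ± 0.26, adjusted p = 1.87e-04). Tdo2, tryptophan dioxygenase, and the matrix protein nephronectin (Npnt) were at -1.80 ± 0.21 and -1.57 ± 0.14. For all 4 the amygdala arrays lay below the hippocampus arrays without overlap. The 2 members higher in amygdala were C1ql3 (0.57 ± 0.08) and calbindin, Calb1 (0.40 ± 0.06), which are bright in both tissues. Il16 was not called on its brightest probe set (0.18 ± 0.32), while its probe set with the lowest p read -2.10 (adjusted p = 2.25e-05), so the reading of this gene depends on which probe set is taken.

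For the CA fields, 14 of 23 markers were called in favour of hippocampus and 4 in favour of amygdala (median -0.45), with the same counts on the low line arrays. Hippocalcin, Hpca, a calcium sensor of pyramidal cells, ran from 1479.8 to 1872 in amygdala (median 1744) and from 3844 to 4311 in hippocampus (median 4123) (-1.26 ± 0.08, adjusted p = 2.81e-07). Pou3f1, Fibcd1, Mpped1 (-1.23 ± 0.12), Spink8 (-1.05 ± 0.11) and Prkca (-1.04 ± 0.07) lay on the same side. The 4 in the other direction were Coch (0.99 ± 0.12), Wfs1 (0.96 ± 0.10), Necab2 (0.83 ± 0.09) and Cacng5 (0.73 ± 0.08). Wfs1, the wolframin gene used as a marker of dorsal CA pyramidal cells, ran from 969.9 to 1378 in amygdala (median 1055) and from 486 to 624 in hippocampus (median 585) (0.96 ± 0.10, adjusted p = 4.20e-05) and was higher in amygdala. Rgs14, a marker of the CA2 field, was at -0.46 ± 0.09, and Map3k15 was not analysed here.

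**Figure D3:**
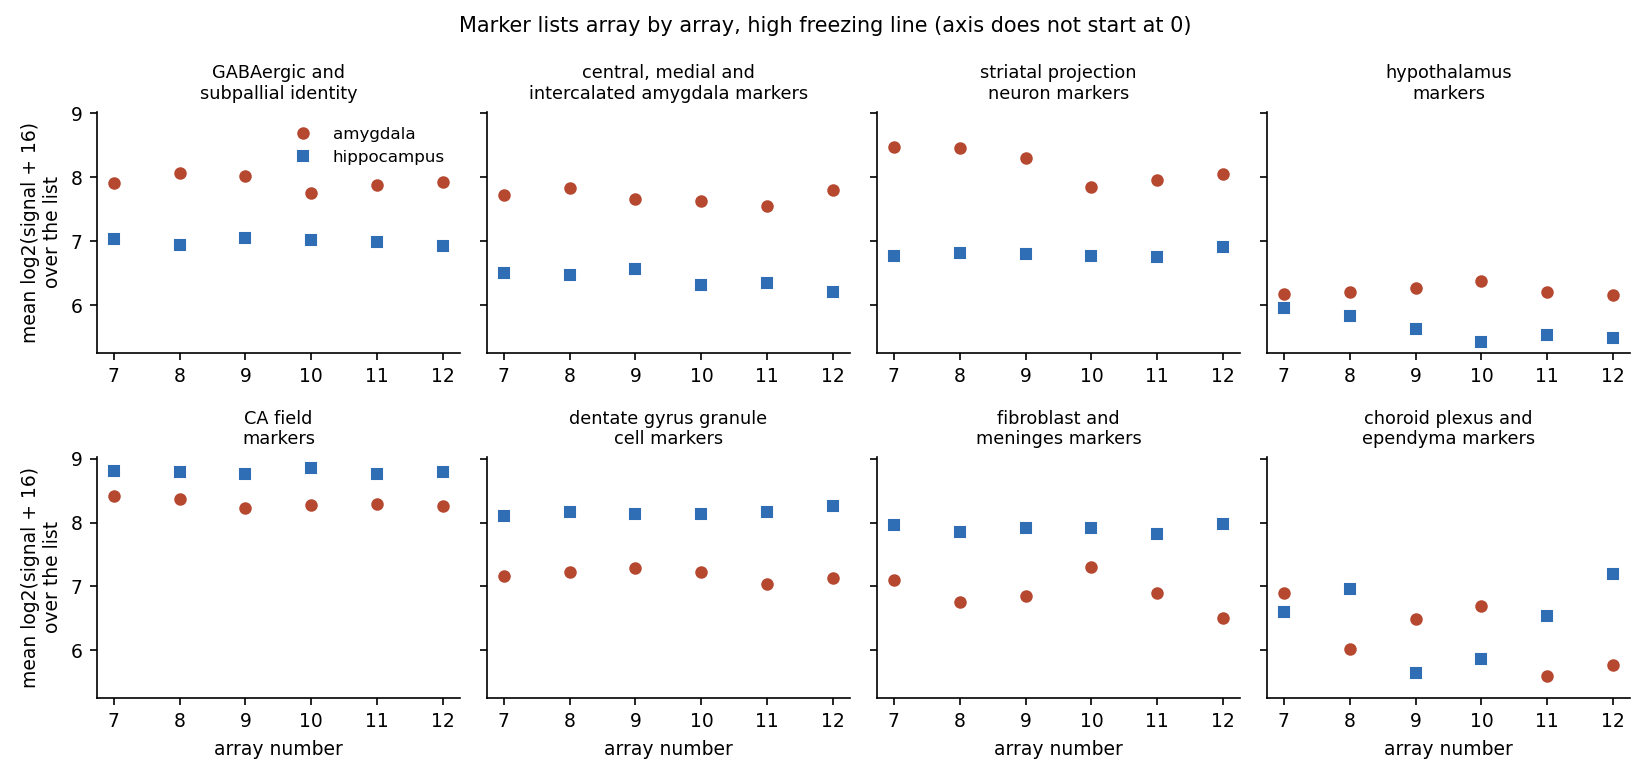
Mean of log2(signal + 16) over the measured members of 8 marker lists on each array of the high freezing line, amygdala as circles and hippocampus as squares, on a shared axis that does not start at 0. The tissues are apart in the first 7 lists and overlap in choroid plexus and ependyma markers, and striatal markers are higher on amygdala arrays 7 to 9 (8.30 to 8.48) than on 10 to 12 (7.85 to 8.05).

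Interneuron genes were called in both directions. Of 18 members 10 were called in favour of amygdala and 3 in favour of hippocampus (median 0.29). Somatostatin, Sst, ran from 2774 to 3052 in amygdala (median 2866) and from 1051 to 1296 in hippocampus (median 1160.4) (1.31 ± 0.07, adjusted p = 1.50e-07). Neuropeptide Y, Npy, ran from 894 to 1224 in amygdala (median 1041) and from 479 to 556 in hippocampus (median 539.6) (0.96 ± 0.08, adjusted p = 6.04e-06). Tac1, the substance P precursor, was at 1.75 ± 0.14, and Lamp5 at 1.24 ± 0.08. Parvalbumin, Pvalb, the marker of fast-spiking basket cells, was the opposite: it ran from 179.6 to 297 in amygdala (median 261) and from 459 to 521 in hippocampus (median 504) (-0.98 ± 0.11, adjusted p = 7.15e-05). Cck, at -0.36 ± 0.08, and the fast-spiking potassium channel gene Kcnc1, at -0.42 ± 0.13, were also higher in hippocampus. Vip (-0.05 ± 0.09), Satb1 (0.06 ± 0.09) and Reln (0.24 ± 0.11) were not called. On their probe sets of lowest p, Satb1 (-0.59) and Reln (-0.80) were called higher in hippocampus. Thus Sst, Npy and Tac1 were higher in amygdala, and Pvalb, Cck and Kcnc1 in hippocampus.

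Neuropeptide genes and their receptors gave 16 calls in the direction of amygdala and 5 in that of hippocampus among 39 (median 0.07; 17 and 4 on the low line arrays). The precursors called higher in amygdala were Tac2, the CART precursor Cartpt (1.82 ± 0.12), Tac1, Crh, neurotensin (Nts, 1.36 ± 0.15), galanin (Gal), Sst, PACAP (Adcyap1), Npy and secretogranin (Scg2, 0.77 ± 0.08). Cartpt ran from 159 to 229.7 in amygdala (median 209) and from 33.2 to 64.8 in hippocampus (median 43.6) (1.82 ± 0.12, adjusted p = 6.63e-07). Scg2 ran from 1977 to 2525 in amygdala (median 2312) and from 1241 to 1428 in hippocampus (median 1309) (0.77 ± 0.08, adjusted p = 2.44e-05). Arrays of the tissues did not overlap for Cartpt, Scg2 or Sst. Cck and Grp were the precursors higher in hippocampus. The receptors were divided. The CCK receptor Cckbr ran from 283 to 354 in amygdala (median 312) and from 69.3 to 100.57 in hippocampus (median 81.3) (1.73 ± 0.10, adjusted p = 1.65e-07), opposite to its ligand. The somatostatin receptor Sstr2 was higher in amygdala (1.12 ± 0.17), while Sstr4 was higher in hippocampus: it ran from 169.7 to 248 in amygdala (median 202) and from 488 to 623 in hippocampus (median 583) (-1.42 ± 0.10, adjusted p = 8.03e-07). The Npy receptors Npy2r (-0.60 ± 0.12) and Npy5r (-0.56 ± 0.10) were higher in hippocampus, opposite to Npy, and Npy1r was not called (-0.08 ± 0.11). The neurokinin receptor Tacr3 (0.99 ± 0.17) and the oxytocin receptor Oxtr (0.67 ± 0.11) were higher in amygdala. Crhr1 (0.35 ± 0.14), the main receptor of Crh, was not called, and its binding protein Crhbp was higher in amygdala (0.34 ± 0.10).

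Transcription of several neuropeptide genes is known to respond to cyclic AMP through the element TGACGTCA before the start of the gene, which the factor CREB binds, and the sequences are shown because the peptide genes and the cyclic AMP genes below were among the larger differences. A selection of 23 peptide precursor genes was taken from the lists. It left out Hcrt, Pmch, Ghrh and Agrp of the hypothalamus list. Of these, Hcrt, Pmch and Ghrh were not called and Agrp was not analysed here, so the group not called is incomplete. Of the 23 genes, 18 had a start-site window in the RefSeq table (GRCm38.p6), and the 250 bases before each start were searched. Penk, Pnoc, Crh, Grp and Vgf had none, and 4 of these 5, all but Grp, were called higher in amygdala. TGACGTCA reads the same on both strands. It was found before 3 of the 11 such genes called higher in amygdala, before 0 of the 1 called higher in hippocampus and before 0 of the 6 not called, and in 1.55% of all 32851 windows. The shorter TGACG, on either strand and contained in the longer motif, was found before 7 of the 11, 1 of the 1 and 2 of the 6, and in 17.8% of all windows. The counts are of genes with a match in any of their windows, while the percentages are of windows, so they are not the same measure. Whether the groups of genes differ was not tested. A match describes letters in a window and is not a measured site. The 3 windows with TGACGTCA, all on the minus strand of their chromosome and printed 5′ to 3′ with the motif in capitals, belong to Sst (chr16:23890845-23891094), Cartpt (chr13:99900684-99900933) and Scg2 (chr1:79440027-79440276).
Sst: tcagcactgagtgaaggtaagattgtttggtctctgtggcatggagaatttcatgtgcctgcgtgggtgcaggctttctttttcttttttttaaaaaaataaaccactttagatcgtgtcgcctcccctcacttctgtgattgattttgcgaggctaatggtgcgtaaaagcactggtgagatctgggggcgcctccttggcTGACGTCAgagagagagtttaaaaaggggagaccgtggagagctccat
Cartpt: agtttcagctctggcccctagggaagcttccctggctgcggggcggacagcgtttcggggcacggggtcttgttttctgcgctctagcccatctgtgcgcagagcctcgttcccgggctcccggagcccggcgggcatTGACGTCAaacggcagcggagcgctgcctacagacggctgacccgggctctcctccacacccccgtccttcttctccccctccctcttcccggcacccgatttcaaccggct
Scg2: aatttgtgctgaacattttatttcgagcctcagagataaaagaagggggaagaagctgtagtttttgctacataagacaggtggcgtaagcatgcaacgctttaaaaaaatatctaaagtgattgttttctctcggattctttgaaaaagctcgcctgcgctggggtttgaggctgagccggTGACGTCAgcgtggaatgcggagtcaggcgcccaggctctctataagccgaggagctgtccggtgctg
The motif lies from base 48 to base 41 before the start in Sst, from 112 to 105 in Cartpt and from 68 to 61 in Scg2.

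In the opioid system 6 of 11 measured genes were called in favour of amygdala and 1 in favour of hippocampus (median 0.52). Along with Penk, the dynorphin precursor Pdyn ran from 63.4 to 146 in amygdala (median 92.2) and from 26.9 to 49.8 in hippocampus (median 35.3) (1.09 ± 0.16, adjusted p = 4.93e-04), and the nociceptin precursor Pnoc was at 0.48 ± 0.13. Of the receptors, the kappa receptor Oprk1 ran from 94.1 to 148 in amygdala (median 118) and from 17.4 to 69.1 in hippocampus (median 37.7) (1.31 ± 0.21, adjusted p = 8.63e-04), the nociceptin receptor Oprl1 was at 0.60 ± 0.12, and the mu receptor Oprm1, with low signals, at 0.74 ± 0.23. Oprd1, the delta receptor, was weak in both tissues and not called (-0.01 ± 0.28). Cpe, carboxypeptidase E, which trims peptide precursors, was the member higher in hippocampus (-0.25 ± 0.06), and its mean over all probe sets was 0.10 and not called (adjusted p = 0.691).

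Most dopamine and noradrenaline signalling genes were not called. Of 13 measured members 4 were called higher in amygdala, namely Drd1, Drd2, Ppp1r1b and the decarboxylase Ddc (1.13 ± 0.11), of which Drd1, Drd2 and Ppp1r1b are also on the striatal list, and 1 higher in hippocampus, the vesicular monoamine transporter Slc18a2 (-0.53 ± 0.16, weak). The genes of dopamine cells themselves, Th (0.62) and Slc6a3 (0.34), were weak and not called; the cell bodies of dopamine neurons are known to lie in the midbrain. Cyclic nucleotide genes had 11 of 26 calls in the direction of amygdala and 3 in that of hippocampus (median 0.31; 14 and 3 on the low line arrays). Prkar2b, a regulatory subunit of protein kinase A, ran from 642 to 711 in amygdala (median 697) and from 187 to 251 in hippocampus (median 208) (1.62 ± 0.08, adjusted p = 7.42e-08). Its catalytic subunit Prkacb ran from 3049 to 3281 in amygdala (median 3158) and from 1457 to 1560.2 in hippocampus (median 1479.5) (1.08 ± 0.06, adjusted p = 1.50e-07). On the probe sets read, the tissues did not overlap for either. Phosphodiesterases of striatal neurons were also higher in amygdala, Pde10a at 1.38 ± 0.10, Pde1b at 1.30 ± 0.12 and Pde7b at 0.99 ± 0.13, as was the olfactory-type G protein Gnal at 1.05 ± 0.13. The adenylate cyclases were split by member. Adcy5 was higher in amygdala, whereas Adcy1, the calcium-stimulated cyclase of hippocampal synapses, ran from 1202 to 1394 in amygdala (median 1336) and from 3043 to 3673 in hippocampus (median 3136) (-1.30 ± 0.08, adjusted p = 2.38e-07), and Adcy9 was at -0.98 ± 0.08 and Adcy2 at -0.40 ± 0.09. Creb1 (0.01 ± 0.07) and Adcy8 (0.16 ± 0.11) were not called.

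GABA-A receptor subunits were exchanged between the tissues. Of 12 members 4 were called in favour of amygdala and 2 in favour of hippocampus (median -0.02). Gabra5, the alpha 5 subunit of extrasynaptic receptors, ran from 396 to 531 in amygdala (median 472) and from 1329 to 1498 in hippocampus (median 1427) (-1.58 ± 0.08, adjusted p = 1.02e-07). In the other direction, Gabra3 ran from 666 to 781 in amygdala (median 749) and from 286 to 338 in hippocampus (median 299) (1.24 ± 0.07, adjusted p = 1.58e-07), and Gabrg1 ran from 393 to 551 in amygdala (median 472) and from 159 to 228 in hippocampus (median 207) (1.16 ± 0.11, adjusted p = 9.02e-06). None of these 3 overlapped between tissues. Gabrd (0.88 ± 0.16) and Gabrg3 (0.54 ± 0.11) were higher in amygdala and Gabrb1 (-0.48 ± 0.08) in hippocampus. Gabrb2 (-0.04 ± 0.07), Gabra2 (-0.08 ± 0.10) and Gabra4 (-0.16 ± 0.07) were bright and not called. Glycine receptor genes joined the amygdala side. Besides Glra3, the alpha 2 subunit Glra2 ran from 234 to 335 in amygdala (median 263) and from 55.2 to 98.9 in hippocampus (median 84.7) (1.59 ± 0.13, adjusted p = 4.43e-06), while the beta subunit Glrb was not called (-0.05 ± 0.08), and 3 of 9 members were called in favour of amygdala and 0 in favour of hippocampus. Gephyrin, Gphn (0.18 ± 0.07), which anchors these receptors, was not called, and neuroligin 2, Nlgn2, was at 0.58 ± 0.13.

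Ionotropic glutamate receptor genes gave 6 calls in the direction of amygdala and 9 in that of hippocampus among 24 (median -0.03; 7 and 10 on the low line arrays). The AMPA receptor subunit Gria1 ran from 2052 to 2479 in amygdala (median 2312) and from 3234 to 3645 in hippocampus (median 3483) (-0.61 ± 0.07, adjusted p = 7.62e-05). Shisa6, an auxiliary protein of AMPA receptors, ran from 145 to 193 in amygdala (median 163) and from 509 to 758 in hippocampus (median 674) (-1.89 ± 0.11, adjusted p = 1.73e-07), the largest difference of the list. Cacng8 (-1.41 ± 0.20) and Cnih2 (-0.59 ± 0.09), which also bind AMPA receptors in hippocampus, were on the same side, as were the NMDA subunits Grin2b (-0.52 ± 0.09) and Grin2a (-0.85 ± 0.21, weak). Gria4 (0.60 ± 0.07) and the cornichon Cnih3 (0.67 ± 0.10) were higher in amygdala, and so was the NMDA subunit Grin3a (0.61 ± 0.09). Gria2 (-0.11 ± 0.06) and Gria3 (0.18 ± 0.07) were not called. Kainate receptor genes differed by subunit. Grik4, of CA3 pyramidal cells, was at -0.92 ± 0.15, while Grik3 ran from 338 to 441 in amygdala (median 394) and from 109.7 to 179 in hippocampus (median 147) (1.34 ± 0.11, adjusted p = 3.28e-06) and Grik1 was at 0.47 ± 0.10. Of 9 metabotropic receptor and scaffold genes 3 were called in favour of amygdala and 4 in favour of hippocampus, the 4 becoming 2 with arrays centred on their medians. Among them were Grm8 (1.40 ± 0.15), Grm4 (0.49 ± 0.11) and Grm7 (0.28 ± 0.07) on the amygdala side and Grm2 (-0.57 ± 0.12) on the hippocampus side, while Grm5 (0.07 ± 0.08) and Grm3 (0.02 ± 0.10) were not called. Their scaffold genes Homer2 (-0.80 ± 0.12), Homer3 (-0.93 ± 0.28) and Homer1 (-0.24 ± 0.07) were higher in hippocampus.

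Of the serotonin receptors, 4 of 14 genes on that list were called in favour of amygdala and 2 in favour of hippocampus (median 0.11). Htr2c ran from 1213 to 1464 in amygdala (median 1341) and from 380.4 to 521 in hippocampus (median 422) (1.60 ± 0.10, adjusted p = 2.94e-07). Htr1a, the inhibitory receptor of pyramidal cells, ran from 72 to 132 in amygdala (median 106) and from 192 to 208 in hippocampus (median 199.99) (-0.91 ± 0.13, adjusted p = 3.57e-04). The arrays did not overlap for either gene, and the directions were opposite. Htr1b (0.94 ± 0.10), Htr1d (1.37 ± 0.20) and the weak Htr1f (0.70 ± 0.19) went with Htr2c, and Htr4 (-0.78 ± 0.12) with Htr1a. In the acetylcholine list 2 of 15 were called in favour of amygdala and 4 in favour of hippocampus. Lypd1, a Ly6 protein that binds nicotinic receptors, ran from 1258 to 1566 in amygdala (median 1378) and from 329 to 489 in hippocampus (median 413) (1.74 ± 0.11, adjusted p = 2.81e-07), whereas its relative Lynx1 was higher in hippocampus (-0.51 ± 0.06). The nicotinic subunit Chrna7 was at -0.72 ± 0.08 and the muscarinic receptor Chrm3 at -1.24 ± 0.16. Ache was called at 1.14 ± 0.35, but hippocampus array 8 read 7.89 where the other 5 read 92.8 to 113.

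Receptors for steroid hormones differed by hormone. Nr3c2, the mineralocorticoid receptor, which binds corticosterone with high affinity in hippocampal neurons, ran from 235 to 316 in amygdala (median 279.7) and from 944 to 1109 in hippocampus (median 1056) (-1.86 ± 0.08, adjusted p = 4.03e-08). Nr3c1, the glucocorticoid receptor, ran from 471 to 603 in amygdala (median 552) and from 558 to 683 in hippocampus (median 589), a difference of -0.12 ± 0.08 that was not called (adjusted p = 0.351). Hsd11b1, the enzyme that regenerates active glucocorticoid inside cells, ran from 113 to 177 in amygdala (median 137) and from 359 to 465 in hippocampus (median 416) (-1.47 ± 0.10, adjusted p = 1.07e-06), and Sgk1, a kinase induced by these receptors, ran from 437 to 518 in amygdala (median 489.9) and from 841 to 1153 in hippocampus (median 1008) (-1.01 ± 0.09, adjusted p = 5.23e-06). Thus the mineralocorticoid receptor, this enzyme and this kinase were higher in hippocampus, while the transcript of the glucocorticoid receptor was within the spread. Fkbp5 (-0.10 ± 0.15), another gene that glucocorticoids induce, was not called. Sex steroid receptors were on the other side, with Esr1 at 1.96 ± 0.23 and Pgr at 0.35 ± 0.08. The list as a whole had 3 calls in each direction among 12, and 1 in favour of amygdala against 4 when probe sets of a gene were averaged.

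Endocannabinoid genes had 0 calls in the direction of amygdala and 5 in that of hippocampus among 11 (median -0.24; 0 and 6 on the low line arrays). The called members make or break down lipid messengers: Dagla (-0.66 ± 0.11), which makes 2-arachidonoylglycerol, Abhd6 (-0.71 ± 0.10), Faah (-0.55 ± 0.09), which degrades anandamide, Napepld (-0.87 ± 0.11) and Ptgs2. Cyclooxygenase 2, Ptgs2, ran from 17.4 to 43.3 in amygdala (median 27.1) and from 71.2 to 141 in hippocampus (median 109) (-1.48 ± 0.17, adjusted p = 6.29e-05). The receptor itself, Cnr1, ran from 1326 to 1675 in amygdala (median 1548) and from 1629.9 to 1851 in hippocampus (median 1726), a difference of -0.18 ± 0.07 that was not called.

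Kinases and calcium sensors of synaptic plasticity gave 7 calls in the direction of amygdala and 12 in that of hippocampus among 25 (median -0.08; 7 and 10 on the low line arrays). The CaM kinase II genes were opposed. Camk2a ran from 2070.1 to 3163 in amygdala (median 2239.7) and from 3574 to 4408 in hippocampus (median 4142) (-0.76 ± 0.10, adjusted p = 2.57e-04). Camk2d ran from 830.3 to 1055 in amygdala (median 938) and from 141 to 237 in hippocampus (median 160.5) (2.35 ± 0.12, adjusted p = 8.99e-08), and 5 of its 6 other probe sets were called the same way. Camk2b was at -0.29 ± 0.07 and Camk2g was not called (-0.08 ± 0.09). Calcium sensors of the visinin-like family were also opposed: Hpca was higher in hippocampus, while Hpcal1 ran from 1914 to 2244 in amygdala (median 2183) and from 381 to 568 in hippocampus (median 542) (2.03 ± 0.10, adjusted p = 8.43e-08). Pcp4, which modulates calmodulin, was at 1.21 ± 0.12 and Camk4 at 0.80 ± 0.12. On the hippocampal side, the calcineurin subunits Ppp3ca (-0.46 ± 0.06) and Ppp3r1 (-0.43 ± 0.07), neurogranin (Nrgn, -0.55 ± 0.08) and Rasgrp1 (-0.49 ± 0.07) had small differences on bright probe sets.

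Of 19 immediate early genes 7 were called in favour of hippocampus and 1 in favour of amygdala (median -0.18; 4 and 0 on the low line arrays). The 7 became 4 without hippocampus array 7 (median -0.09), without amygdala arrays 7 and 8, with 1 added in place of 16, and with arrays centred on their medians. Arc, an activity-dependent synaptic protein, ran from 36.6 to 100.74 in amygdala (median 55.7) and from 155 to 297 in hippocampus (median 207) (-1.54 ± 0.21, adjusted p = 2.62e-04). Nr4a3 ran from 283 to 368 in amygdala (median 334) and from 703 to 821 in hippocampus (median 747) (-1.17 ± 0.08, adjusted p = 1.02e-06), Jun was at -0.95 ± 0.10 and Fosl2 at -1.02 ± 0.09. Fos (-0.18 ± 0.22) and Egr1 (-0.33 ± 0.13), the genes most used as activity markers, were not called and their arrays overlapped. Bdnf, which neurons release with activity, was higher in hippocampus: it ran from 181 to 271 in amygdala (median 239) and from 328 to 419 in hippocampus (median 345) (-0.58 ± 0.10, adjusted p = 0.00193). Its receptor Ntrk2 (0.40 ± 0.06) and the peptide precursor Vgf (0.76 ± 0.10) were higher in amygdala.

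Ion channel genes were called in both directions. Potassium channels had 9 calls in the direction of amygdala and 11 in that of hippocampus among 33 (median -0.06). Kcnf1 (1.40 ± 0.12), the sodium-activated channel Kcnt1 (1.13 ± 0.10) and Kcnh1 (0.68 ± 0.10) were higher in amygdala. The small-conductance channel Kcnn2 ran from 159 to 219.6 in amygdala (median 186) and from 372 to 497 in hippocampus (median 408) (-1.14 ± 0.10, adjusted p = 7.48e-06), and the beta subunit Kcnab2 (-0.93 ± 0.12), Kcna1 (-0.64 ± 0.11) and the girk channel Kcnj6 (-0.64 ± 0.09) were also higher in hippocampus. Kcna2 (-0.05 ± 0.06), Kcnk2 (0.06 ± 0.08) and Kcnma1 (0.05 ± 0.12) were not called. Among 22 calcium, sodium and HCN channel genes 4 were called in each direction (7 and 4 with 64 added in place of 16, 2 and 4 when probe sets were averaged), with Scn4b (1.88 ± 0.29) and Cacna2d2 (1.26 ± 0.09) at 1 end and Scn3b (-0.61 ± 0.07) and Cacnb2 (-0.45 ± 0.08) at the other.

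Guidance molecules and their receptors gave 7 calls in the direction of amygdala and 10 in that of hippocampus among 35 (median -0.11; 8 and 10 on the low line arrays). Ligand and receptor of a semaphorin pair were on opposite sides. Sema3a ran from 289.7 to 349 in amygdala (median 314) and from 39.1 to 75.3 in hippocampus (median 54.5) (2.26 ± 0.13, adjusted p = 1.79e-07), whereas its receptor neuropilin 1, Nrp1, ran from 389 to 466 in amygdala (median 435) and from 1073 to 1399 in hippocampus (median 1197) (-1.46 ± 0.08, adjusted p = 1.71e-07). A second pair was crossed the other way: Sema3e was higher in hippocampus (-1.21 ± 0.11) and its receptor Plxnd1 higher in amygdala (1.30 ± 0.12). The ephrin receptors that were called, Epha4 (-1.22 ± 0.09), Epha7 (-1.16 ± 0.12), Epha6 (-0.72 ± 0.09) and Epha3 (-0.68 ± 0.09), were higher in hippocampus, and the ligand Efnb2 (0.82 ± 0.11) higher in amygdala. Secreted and transmembrane synaptic organizers were called in both directions, with Lrrtm2 (0.59 ± 0.08), Cbln4 (0.64 ± 0.09) and Nrxn3 (0.43 ± 0.06) on the amygdala side and Lrrtm1 (-0.98 ± 0.07) on the hippocampus side.

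Release machinery differed by isoform. Of 30 genes 9 were called in favour of amygdala and 5 in favour of hippocampus (median 0.07), and the 5 became 2 with arrays centred on their medians and 3 without amygdala arrays 7 and 8. Unc13c, a priming factor, ran from 473 to 587 in amygdala (median 521) and from 131 to 192 in hippocampus (median 153) (1.66 ± 0.10, adjusted p = 3.02e-07), and Doc2a (1.22 ± 0.12), Rims3 (1.11 ± 0.10) and Stx1a (0.80 ± 0.08) went with it. Complexin 2, Cplx2, ran from 1476 to 2072 in amygdala (median 1611) and from 2863 to 3474 in hippocampus (median 3084) (-0.88 ± 0.10, adjusted p = 6.57e-05), and Cplx1 was at -0.50 ± 0.06. General vesicle genes such as synaptophysin (Syp, -0.15 ± 0.11), Syn1 (-0.03 ± 0.08) and Rims1 (0.08 ± 0.08) were not called. Of 15 retinoic acid genes 4 were called in favour of amygdala and 3 in favour of hippocampus (median 0.08). The degrading enzyme Cyp26b1 ran from 287 to 427 in amygdala (median 383) and from 61.3 to 94.3 in hippocampus (median 76.5) (2.08 ± 0.11, adjusted p = 1.19e-07), and the receptors Rxrg (1.92 ± 0.09) and Rarb (1.45 ± 0.18) were higher in amygdala. The synthesizing enzymes Aldh1a1 (-1.24 ± 0.12) and Aldh1a2 (-1.12 ± 0.19) were higher in hippocampus, and Aldh1a2 is also a meningeal gene.

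**Figure D4:**
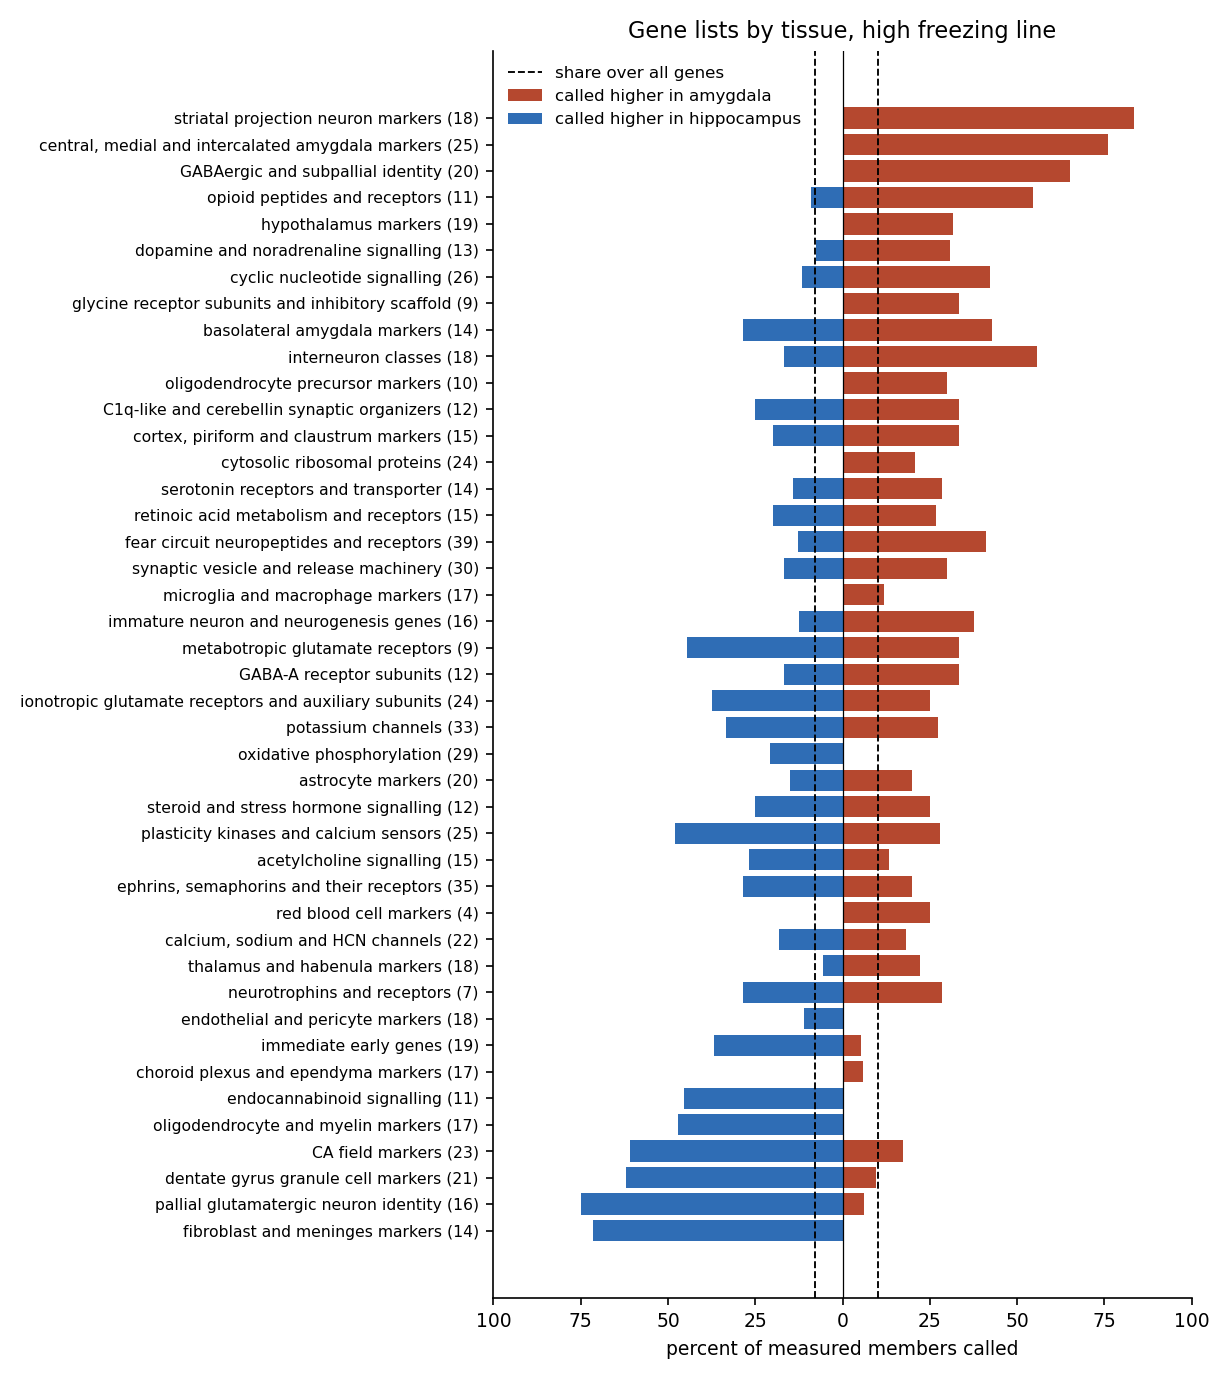
Percent of the measured members of each of 43 gene lists called higher in amygdala (right) or higher in hippocampus (left) in the high freezing line, ordered by median difference, with the number of measured members in brackets; dashed lines are the shares over all genes, 10.2% and 7.85%. Striatal, central and GABAergic lists lie at the amygdala end, and pallial, dentate, CA and meningeal lists at the hippocampus end.

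Among glial genes, those of myelin were higher in hippocampus. Of 17 oligodendrocyte and myelin genes 8 were called in favour of hippocampus and 0 in favour of amygdala (median -0.36; 11 and 0 on the low line arrays). Mobp ran from 1068 to 1457 in amygdala (median 1244) and from 1538 to 2822 in hippocampus (median 2181) (-0.78 ± 0.14, adjusted p = 0.002), Gpr37 was at -0.85 ± 0.10 and the myelin basic protein gene Mbp at -0.36 ± 0.08. Cnp (-0.18 ± 0.14) and Sox10 (0.008 ± 0.13) were not called. Precursor genes leaned the other way, 3 of 10 being called higher in amygdala and 0 in hippocampus, with Lhfpl3 at 0.77 ± 0.15 and Pdgfra at 0.30 ± 0.07. The Pdgfra call rests on its brightest probe set, since the mean of its probe sets was -0.13. Astrocyte genes gave 4 calls in the direction of amygdala and 3 in that of hippocampus among 20 (median -0.08), but 3 and 7 when probe sets of a gene were averaged and 4 and 8 on the probe set of lowest p. Gfap, the filament of fibrous astrocytes, ran from 195 to 287 in amygdala (median 211) and from 399 to 542 in hippocampus (median 495) (-1.09 ± 0.11, adjusted p = 1.91e-05), and Aqp4 ran from 569 to 802 in amygdala (median 677) and from 1106 to 1463 in hippocampus (median 1209) (-0.84 ± 0.10, adjusted p = 6.93e-05). Agt, angiotensinogen, was higher in amygdala (1.11 ± 0.19), as was Itih3 (0.96 ± 0.12). The glutamate transporter Slc1a3 (0.14 ± 0.07), Aldh1l1 (0.29 ± 0.11) and S100b (0.09 ± 0.10) were not called. Microglial genes had 2 calls among 17, C1qc (0.37 ± 0.10) and Tmem119 (0.36 ± 0.10), both higher in amygdala with overlapping arrays, a share near the background. Cx3cr1 (-0.01 ± 0.10) and P2ry12 (-0.13 ± 0.12) were not called.

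Fibroblast and meninges markers were higher in hippocampus for 10 of 14 members and higher in amygdala for 0 (median -1.04). Decorin ran from 124 to 282 in amygdala (median 188) and from 777 to 1136 in hippocampus (median 895) (-2.16 ± 0.17, adjusted p = 2.56e-06). Ptgds, the prostaglandin D synthase of the meninges, ran from 1275 to 4866 in amygdala (median 2530.2) and from 5326 to 6740.3 in hippocampus (median 6283) (-1.26 ± 0.24, adjusted p = 0.00331). Fibromodulin, Fmod, ran from 34.3 to 98.5 in amygdala (median 56.8) and from 163 to 240.0 in hippocampus (median 185) (-1.47 ± 0.17, adjusted p = 8.79e-05). For all 3 genes the amygdala arrays lay below the hippocampus arrays. Ogn (-1.62 ± 0.23), Lum (-1.38 ± 0.18) and Mgp (-1.14 ± 0.13), genes of the extracellular matrix, were also higher in hippocampus. Decorin is known to be made by some neurons and Ptgds by oligodendrocytes as well. On the low line arrays 6 were called, all higher in hippocampus, and the median was -0.40. The list mean by array was 6.50 to 7.31 in amygdala and 7.83 to 7.99 in hippocampus, and the part of attached meninges was not tested. Of 18 endothelial and pericyte markers 2 were called, Vwf (-0.999 ± 0.16) and Rgs5 (-0.33 ± 0.09), both higher in hippocampus.

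Choroid plexus markers varied between arrays of a tissue more than between tissues. Transthyretin, Ttr, the main secreted protein of the choroid plexus, read 12357, 4399, 10919, 12028, 469 and 1723 on amygdala arrays 7 to 12 in that order. In hippocampus it read 12628, 14158, 1796, 3490.2, 11141 and 13946 on arrays 7 to 12. High and low arrays occur in both tissues, with a difference of -0.81 ± 0.82 (adjusted p = 0.553). Among genes with a mean log2(signal + 16) of at least 8 it had the largest SD between arrays in each tissue. Kcnj13 and Kl, also of the plexus, spread from 24.3 to 346 and from 23.4 to 267 in signal over the 12 arrays. Of 17 choroid plexus and ependyma markers 1 was called, Rsph1, a gene of cilia (0.75 ± 0.21). The 4 measured red blood cell markers were weak in both tissues, and 1, Slc4a1 (0.58 ± 0.16), was called.

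Genes of basic metabolism had small median differences, -0.07 for oxidative phosphorylation and 0.12 for ribosomal proteins. Among 29 oxidative phosphorylation genes 0 were called in favour of amygdala and 6 in favour of hippocampus, by at most the -0.37 ± 0.07 of Uqcrc2. This count was 1 with arrays centred on their medians, 3 without amygdala arrays 7 and 8, and 4, against 2 in favour of amygdala, when probe sets of a gene were averaged. Of 24 ribosomal protein genes 5 were called higher in amygdala and 0 in hippocampus, with differences over the list from -0.18 to 0.73. The 5 became 3 without hippocampus array 7 and 1 without amygdala arrays 7 and 8, and 1 was called on the low line arrays. Rps24, at 0.22 ± 0.06, turned to -0.063 in the mean of its probe sets. Genes of immature neurons gave 6 calls in the direction of amygdala and 2 in that of hippocampus among 16. Dcx, doublecortin, ran from 484 to 579 in amygdala (median 533) and from 172 to 223 in hippocampus (median 187) (1.42 ± 0.08, adjusted p = 2.49e-07), and Sox11 and Tubb3 were at 0.57 ± 0.13 and 0.46 ± 0.08. Mki67, a gene of dividing cells, was weak and not called. Neurod1, which granule cells also use, was at -1.27 ± 0.09.

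Further genes were taken from the brightest probe sets that differed by at least 1, a choice by signal that does not rank transcripts by abundance. In amygdala these were Pcp4, Prkacb, the growth cone protein Gap43, Sst, Penk, the tau gene Mapt, Arpp21, Mef2c and Hpcal1 on the higher side. Gap43 ran from 2858 to 3206 in amygdala (median 2921) and from 946 to 1145 in hippocampus (median 1028) (1.50 ± 0.07, adjusted p = 4.21e-08), and Arpp21, a cyclic AMP-regulated phosphoprotein, ran from 2279 to 2935 in amygdala (median 2640.4) and from 584 to 741 in hippocampus (median 694) (1.92 ± 0.10, adjusted p = 7.58e-08). In hippocampus they were Ptgds, Hpca, Adcy1, the exchange factor Kalrn, the transcription factor Nfix, Nptx1, Wipf3, Zbtb20 and Arhgef25. Nfix ran from 786 to 971 in amygdala (median 952) and from 2317 to 2589 in hippocampus (median 2510.2) (-1.43 ± 0.07, adjusted p = 1.04e-07), and Kalrn was at -1.02 ± 0.06. Other probe sets did not always give a call: 0 of 3 were called the same way for Mapt, 0 of 2 for Prkacb, 2 of 7 for Kalrn, and, among the leading genes, 0 of 1 each for Glra3, Dcn and Cebpd.

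Probe sets of the same gene did not always tell the same story. Of 2006 called genes with other probe sets, 855 had another probe set called the same way and 54 had 1 called the opposite way, 52 of them genes with a regular name. Taok1, a kinase, had a brightest probe set at 0.64 ± 0.11 and another at -0.73 ± 0.09, and the arrays of the tissues did not overlap for either. Ap1s2 was at 0.70 ± 0.11 on the brightest and at -0.99 ± 0.23 on a weak probe set. Tmsb10 was at 0.57 ± 0.06 and -0.60 ± 0.16. In such genes the probe sets can read different transcripts, which the files do not resolve.

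The low freezing line shows how much of this is shared. There 5424 probe sets were called between amygdala and hippocampus (12.0%), 2802 in favour of amygdala (6.22%) and 2622 in favour of hippocampus (5.82%). The comparisons share no array. Of the 6917 probe sets called in the high line, 94.5% had the same sign in the low line, and 3687 were also called there in the same direction, which is 53.3% of the high line calls and 68.0% of the low line calls. Of the 734 called with a difference of at least 1, 649 (88.4%) were called the same way. Across the called probe sets the differences of the lines correlated at 0.904 and across all probe sets at 0.691, which are correlations over probe sets and not over replicates. Penk was at 3.59 in the high line and 3.54 in the low line, Dsp at -3.80 and -3.87, Drd1 at 2.69 and 2.83, Nr3c2 at -1.86 and -1.96.

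**Figure D5:**
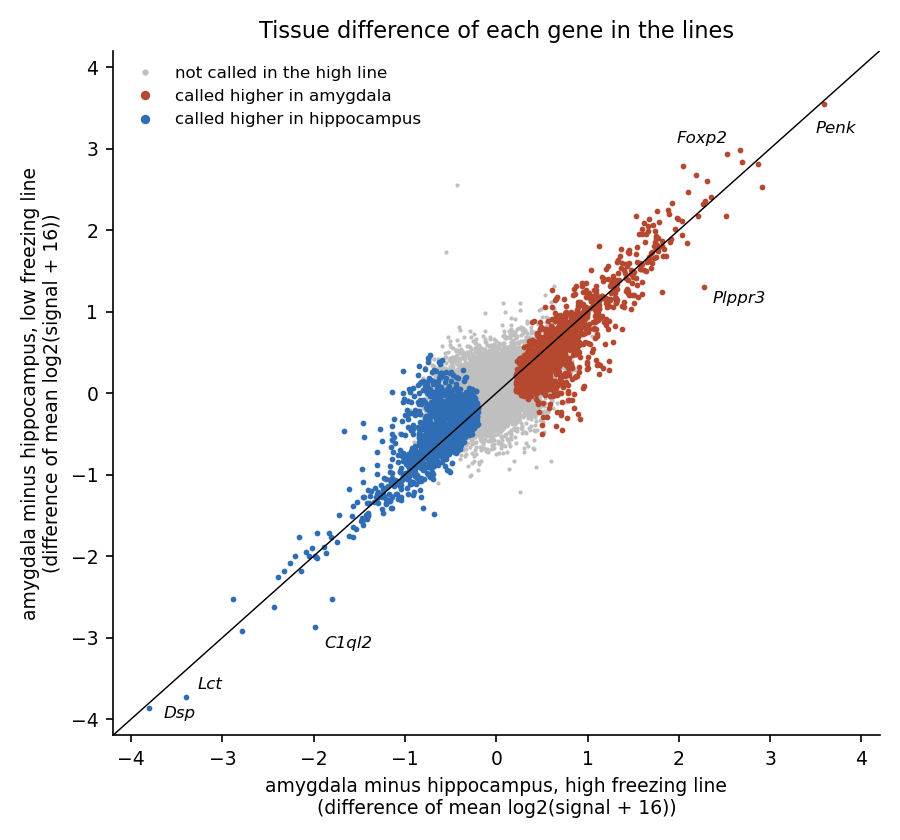
Amygdala minus hippocampus difference of mean log2(signal + 16) for each of 18193 genes in the high freezing line (horizontal) and the low freezing line (vertical), coloured by the call in the high line, with the line of equal difference. Genes with large differences lie near the line, among them Penk (3.59 and 3.54) and Dsp (-3.80 and -3.87), while Plppr3 and C1ql2 lie off it.

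When the difference between the lines was itself tested over all 24 arrays, limma called 0 probe sets, with 3189 (7.08%) at an unadjusted p under 0.05 and a lowest adjusted p of 0.156. No tissue difference was therefore shown to belong to the high freezing line. In simulated data this test recovered 36% of differences of 0.5 and 76% of differences of 1. The 0 calls therefore do not show that the lines are alike. The 10 named genes with the lowest p, none called, were Armh4, Tmco5, Rrp9, Cast, Strc, Glipr1l2, Kcnab3, Cfap52, Cbln4 and Pln, with adjusted p between 0.260 and 0.303. Cbln4, a synaptic organizer of the cerebellin family, was at 0.64 ± 0.09 in the high line and at 1.14 in the low line, and the test of the difference gave -0.50 ± 0.11, adjusted p = 0.303. Armh4 was at 0.10 and -0.65, and Cast, calpastatin, at -0.61 and 0.08. Strc was the named gene called in opposite directions, 0.50 and -0.39, with medians under 20 in signal in the high line. Among the leading genes the widest gaps were those of Plppr3, at 2.27 against 1.30 (test of the difference 0.97 ± 0.34, adjusted p = 0.608), and C1ql2, at -1.99 against -2.88 (0.89 ± 0.36, adjusted p = 0.647). Neither passed. Nr4a2, at -1.31 and -0.72, was called in the high line and not in the low line, and the difference was not called (-0.58 ± 0.27, adjusted p = 0.69).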

How the data were processed

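Amygdala and hippocampus of males of line 25 (high freezing) and line 24 (low freezing) were measured on 24 Affymetrix mouse arrays, 6 per tissue and line. The deposited values are linear intensities, 1 per probe set, which the authors had scaled so that every array has nearly the same trimmed mean, as the deposited values themselves show. The signal algorithm is not given in the sources used here. After 64 control probe sets were set aside, 45037 were tested, of which 34945 carry a single gene symbol in the platform annotation, 932 several and 9160 none. Signals were transformed to log2(intensity + 16). Amygdala and hippocampus of line 25 were compared with limma 3.58.1 in R 4.3.3 on these 12 arrays, with moderated statistics and Benjamini-Hochberg adjustment over all probe sets. The low freezing line was fitted in the same way, and the difference between the lines was tested on all 24 arrays. Array measures were compared by exact permutation. The fit was tested on simulated data, with known changes placed in probe sets above the median brightness. Between the tissues it recovered 46% of changes of 0.5 and 90% of changes of 1. For the difference between the lines these were 36% and 76%.

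A gene was read on the probe set with the highest mean over the 12 arrays. Named were the 15 called genes with the largest difference in each direction and a mean log2 level of at least 7 in the higher tissue, the 10 genes with the lowest p for the difference between the lines, the genes brightest or most variable in each tissue, and genes called oppositely in the lines or by other probe sets, leaving out clone and gene-model names. The other genes come from 43 lists of regional markers, cell type markers and signalling systems, with 799 genes, 716 of them measured. Genes and lists were chosen with earlier results of these data known. Promoter windows were read from RefSeq (GRCm38.p6). Alternatives varied the constant added, the scaling, the filter on weak probe sets, the variance model, the arrays and the probe set read per gene, and the number of arrays limits the precision.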

Additional observations from a re-analysis of the deposited data

Results flagged for a closer look

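Among 154 groups of 6 arrays examined for the named genes and the array measures, 8 held an array far from the other 5. Dixon's 95% criterion was used, on the gap to the nearest array over the range. In groups not picked for their spread, chance alone flags about 1 group in 20. Cap1, Rian and Sc5d were named because they varied most in the tissue concerned, so that rate does not hold for them. In amygdala, array 7 read 91.08 for Cap1, an actin-regulating protein, against 348 to 596 on the others. The same array read 415.3 for Fam168a against 1004 to 1166. Amygdala array 12 read 4.801 for Ccbe1 against 26.2 to 38.5, and array 10 read 31.26 for Serpina3n, a gene of reactive astrocytes, against 84.7 to 123. In hippocampus, array 8 read 41.65 for phospholamban (Pln) against 55.6 to 64.1. Hippocampus array 9 read 725.5 for the noncoding RNA Rian against 1410.0 to 1913, and 46.09 for Rrp9 against 6.52 to 15.9. Hippocampus array 11 read 119.9 for the sterol desaturase Sc5d against 322 to 472. Amygdala array 7, which holds 2 of the 8, is also the array with the lowest actin ratio (0.301), and the part of that in these values was not tested.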

How the results depend on the processing

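The count of 6917 probe sets called between the tissues lay between 5639 and 6557 when each array was left out in turn, and was 6484 and 8016 with 1 and 64 added before the logarithm, 6845 after quantile normalization and 8592 in the fit of all 24 arrays. Requiring a difference of at least 1 left 734. Array numbers do not pair the tissues: the correlation of deviations between arrays of the same number ran from -0.030 to 0.013, and 0 of 6 amygdala arrays correlated best with their own number. With the array number as a replicate block 4916 were called, 4642 of them also called without it. With the block the counts were 4 against 8 for myelin, 1 against 6 for oxidative phosphorylation, 2 against 5 for ribosomal proteins, 2 against 5 for vesicle genes in favour of hippocampus, and 1 against 3 for steroid genes in favour of amygdala. The difference between the lines gave 0 calls under the alternatives run for it, which varied the constant, the scaling, the filter and the variance model and left out arrays of the high line, except 2 without amygdala array 11. The range over single high line arrays left out was 0 to 2. Low line arrays were not left out, and the block and the actin covariate were not run for it. Centring on medians moved the low line split to 42.8% in favour of amygdala from 51.7%. Of 361 called genes on the lists or named, between 313 and 360 kept their call in each alternative. Their direction turned in 7 when a gene's probe sets were averaged and in 1 when the probe set of lowest p was read, and in 0 under the other alternatives. Among the called genes named here, averaging gave 0.10 for Cpe, -0.13 for Pdgfra and -0.063 for Rps24. Of 392 genes not called in the main reading, 2 were called with the sign turned when probe sets were averaged, Il16 (-0.83) among them. On the probe set of lowest p, 23 of the 392 were called with the sign turned. They include Camk2g (0.33), Foxp1 (-0.35), Il16 (-2.10), Kcnab3 (-0.83), Reln (-0.80) and Satb1 (-0.59). These values come from other probe sets of the same genes by construction. Alternatives for the low line counts, and the lists without arrays or with the block, were chosen after seeing the data. Weak signals and 6 arrays per tissue limit what could be called.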
